A study of Arabidopsis thaliana with 6 samples.

Results

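The low-numbered side of the chromosome 2 heterochromatin of Arabidopsis thaliana was taken as all loci named AT2G04000 to AT2G07659. The xyloglucan enzyme gene XTH4 (AT2G06850) was left out by the rule. The rule uses locus names and no measured value, but it was written with earlier results of these data known, and 432 of the 29670 loci of the deposited value table belong to the range. RNA levels were compared between epiRIL12 and Col, with 3 arrays each, in untreated plants aged 14 days and grown in long days. Col is the reference accession. Lines such as epiRIL12 (epigenetic recombinant inbred lines) were bred from Col and a mutant that had lost DNA methylation, so their chromosomes alternate between stretches inherited from each. The founder mutant of this family of lines lacks MET1, the enzyme that maintains CG methylation. The sources used here do not state which parent gave epiRIL12 its copy of the range. Per the labels the RNA came from whole seedlings, and their tissue entry reads rosette leaves. Nothing in them says whether the 3 samples of a genotype were grown apart, and the spread behind the p-values may therefore be technical.

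Pericentromeric heterochromatin of Arabidopsis is packed with transposons and their remains, interspersed with ordinary genes. DNA methylation, kept up through cell division by MET1 at CG sites, holds most of these repeats silent. When methylation is lost, some repeats are transcribed again, and the state can be inherited. Locus numbers run along the chromosome from the end of the short arm, so numbers grow toward the centromere over this range. Of the 432 loci, 429 matched the RefSeq gene table of assembly TAIR10.1 by locus tag. It classed 240 as pseudogenes (219 pseudogene and 21 transcribed pseudogene), 188 as protein-coding and 1 as noncoding RNA. Transposable-element genes have no class of their own in this table, and many stand among its pseudogenes. It names no transposon family for these loci, so they are given by locus name. It lists 506 protein-coding and pseudogene-class loci under these numbers, of which 428 are in the value table. By its annotated starts, 5 loci stand out of the order of their numbers.

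The deposited log2 values ran from 2.30 to 15.47 over the 6 arrays, with array medians of 6.82 to 6.84 in epiRIL12 and 6.80 to 6.81 in Col. Values were spread a little more widely over loci on both arrays numbered 3 (SD 2.40 and 2.37) than on the other 4 arrays (2.32). MET1 itself stood at 8.99 ± 0.08 in epiRIL12 and 9.03 ± 0.07 in Col (SD, n = 3 each). Of the marker genes, 3 leaf genes averaged 14.49 to 15.41 in epiRIL12 and 14.51 to 15.41 in Col. The 6 root genes averaged 4.28 to 6.75 in epiRIL12 and 4.46 to 6.53 in Col. None of these markers was called different between the genotypes. No background level was given for the arrays. Thus a low value is not shown to be absence of RNA, a fold from a low level need not be a ratio of RNA, and values of different loci also differ by their probes.

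RNA of many loci across the range was higher in epiRIL12, and no locus was called lower. Of the 432 loci, 39 rose (9.03%), against a background of 0.89% of all 29670 loci of the table called higher (limma, Benjamini-Hochberg adjusted p under 0.05 over all loci). The count of loci called lower was 0, against a background of 0.0843%, and is thus near the background. XTH4, which has a number within the range and was left out, was called lower (log2 -0.89, SE 0.13, limma adjusted p = 0.0297), so with it the count would be 1. At an unadjusted p under 0.05, limma gave 68 range loci above 0 (15.7%, against 3.32% of all loci) and 19 below 0 (4.40%, against 3.72%). The median rise of the 39 loci was 6.78-fold (log2 2.76), the smallest 1.64-fold and the largest 222-fold. At least 2-fold rises were seen at 37 loci, at least 8-fold rises at 14 and at least 16-fold rises at 6. The median log2 difference of the range was -0.00074, beside -0.02 over all loci, and 83.6% of the range loci differed by less than 0.5, against 95.2% of all loci.

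Array by array, the change showed in the upper part of the values of the pseudogene classes. The 3 epiRIL12 arrays had 31, 30 and 32 of the 240 pseudogene-class loci above 6.80, the median of all Col values. The 3 Col arrays had 3, 3 and 2 such loci. The median of the 240 loci was 4.37, 4.33 and 4.15 on the epiRIL12 arrays, against 4.25, 4.24 and 4.10 on the Col arrays, so the middle of the class overlapped between genotypes. Its 90th percentile was 7.40, 7.19 and 7.30 on the epiRIL12 arrays and 5.39, 5.58 and 5.43 on the Col arrays, which do not overlap. Among the 188 protein-coding loci, 86, 88 and 90 lay above 6.80 on the epiRIL12 arrays and 84, 82 and 84 on the Col arrays. In RNA from whole tissue, more expressing cells and more RNA per cell cannot be told apart.

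**Figure D1:**
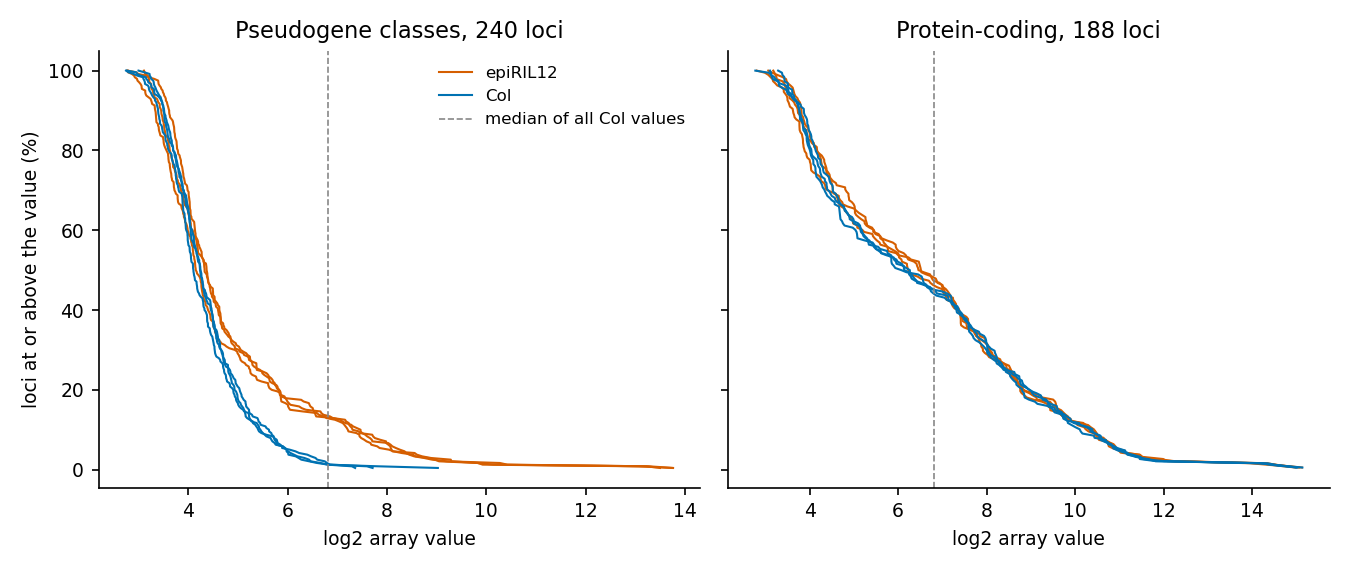
Share of the pseudogene-class loci (left, 240 loci) and protein-coding loci (right, 188 loci) of the range at or above each log2 array value, 1 line per array, epiRIL12 orange and Col blue. The epiRIL12 lines of the pseudogene classes part from the Col lines only in their upper part, with 30 to 32 loci right of the dashed median of all Col values against 2 to 3 in Col.

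By class, 35 of the 39 rises were at pseudogene-class loci and 4 at protein-coding loci. Thus 14.6% of the pseudogene-class loci of the range rose, against a background of 5.72% of such loci in the whole table. The 21 transcribed pseudogenes held 0 of these rises, against a background of 0.172% of such loci in the whole table. Of the protein-coding loci of the range, 2.13% rose, against 0.107% in the whole table, and 0 were called lower, against 0.0715%. Every epiRIL12 value lay above every Col value at 72 loci of the range (16.7%, against a background of 5.19%), and below every Col value at 20 (4.63%, against 6.89%). Within the pseudogene classes these counts were 59 (24.6%, against 14.8%) and 9 (3.75%, against 5.6%), and among protein-coding loci 12 (6.38%, against 3.67%) and 11 (5.85%, against 7.11%). The median log2 difference was 0.04 for pseudogene-class loci of the range, beside 0.01 for the class in the whole table, and -0.03 for protein-coding loci in both. These shares are descriptions, since copies of 1 repeat family are not independent loci.

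The count of rises depended on the test and on the arrays. It was 24 without both arrays numbered 3, 21 with an ordinary equal-variance test and 22 from the p-values of the authors' deposited table after adjustment. Leaving out 1 epiRIL12 array kept 33, 35 and 30 of the 39 calls (replicates 1, 2 and 3), and leaving out 1 Col array kept 32, 31 and 31. In all, 29 of the 39 stayed called whichever single array was left out. The other 10 were AT2G04036, AT2G04990, AT2G05640, AT2G05642, AT2G05770, AT2G06420, AT2G06740, AT2G07215, AT2G07395 and AT2G07620, with limma adjusted p of 0.0513 to 0.191 where a call was lost. In the authors' deposited table, all 39 loci had a log2 difference above 0, from 0.66 to 7.78, and an unadjusted p of at most 0.00506. That table belongs to the same series, and the loci were chosen by their limma calls, so this is no independent support.

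The 2 largest rises were at pseudogene-class loci that lay below the median of all Col values in Col and above 13 in epiRIL12. AT2G06370 stood at 13.22, 13.06 and 13.27 in epiRIL12, against 4.99, 5.76 and 5.43 in Col. AT2G04770 stood at 13.50, 13.74 and 13.76 in epiRIL12, against 6.75, 5.62 and 5.57 in Col. Both had epiRIL12 arrays close together and no overlap with Col. The difference was 222-fold for AT2G06370 (log2 7.79, SE 0.20, limma adjusted p = 1.5e-05). For AT2G04770 it was 206-fold (log2 7.68, SE 0.32, limma adjusted p = 7.4e-05). AT2G05915, classed as protein-coding and without a symbol, stood at 12.25, 12.20 and 12.09 in epiRIL12, against 4.91, 6.87 and 4.69 in Col. Its Col replicate 2 was well above the other 2 Col arrays, yet all Col values lay far below epiRIL12. This rise was 103-fold (log2 6.69, SE 0.54, limma adjusted p = 0.00192). Its call was lost with the ordinary test (adjusted p = 0.0994), without both arrays numbered 3 (limma adjusted p = 0.0606) and with the p-values of the authors' deposited table after adjustment (0.115).

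Next in size were 3 pseudogene-class loci with rises of over 16-fold. AT2G06340 had 10.42, 9.93 and 9.82 in epiRIL12, against 4.58, 5.04 and 5.74 in Col (log2 difference 4.94, SE 0.31, limma adjusted p = 0.000479). AT2G06590 had 8.38, 8.30 and 8.56 in epiRIL12, against 4.24, 3.93 and 3.13 in Col (log2 difference 4.64, SE 0.28, limma adjusted p = 0.000373). AT2G06800 had 8.91, 9.05 and 9.28 in epiRIL12, against 4.58, 4.95 and 4.55 in Col (log2 difference 4.39, SE 0.15, limma adjusted p = 3.9e-05). The genotypes did not overlap at any of these loci, and the Col arrays spread more widely than the epiRIL12 arrays at all 3. With the authors' deposited p-values after adjustment, AT2G06590 was not called (0.0720).

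The remaining 6 of the 12 largest rises reached epiRIL12 levels of 7.97 to 10.08. AT2G06720 had 10.27, 9.83 and 10.15 in epiRIL12, against 5.85, 6.02 and 6.46 in Col. AT2G05030 had 8.55, 8.83 and 8.60 in epiRIL12, against 4.70, 4.70 and 4.70 in Col. AT2G05000 had 8.35, 8.53 and 8.71 in epiRIL12, against 4.50, 5.15 and 4.77 in Col. These loci rose by 3.97, 3.96 and 3.72 on the log2 scale, and the Col arrays were nearly equal at AT2G05030 (SD 0.0018). AT2G06760 had 8.18, 7.67 and 8.08 in epiRIL12, against 4.69, 4.45 and 4.33 in Col. AT2G06220 had 8.02, 8.13 and 8.11 in epiRIL12, against 4.73, 4.81 and 4.33 in Col. AT2G06670 had 8.26, 8.04 and 8.07 in epiRIL12, against 4.81, 4.56 and 4.96 in Col. They rose by 3.49, 3.46 and 3.35, and at all 6 loci every epiRIL12 value lay above every Col value (limma adjusted p 1.5e-05 to 0.000168).

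**Figure D2:**
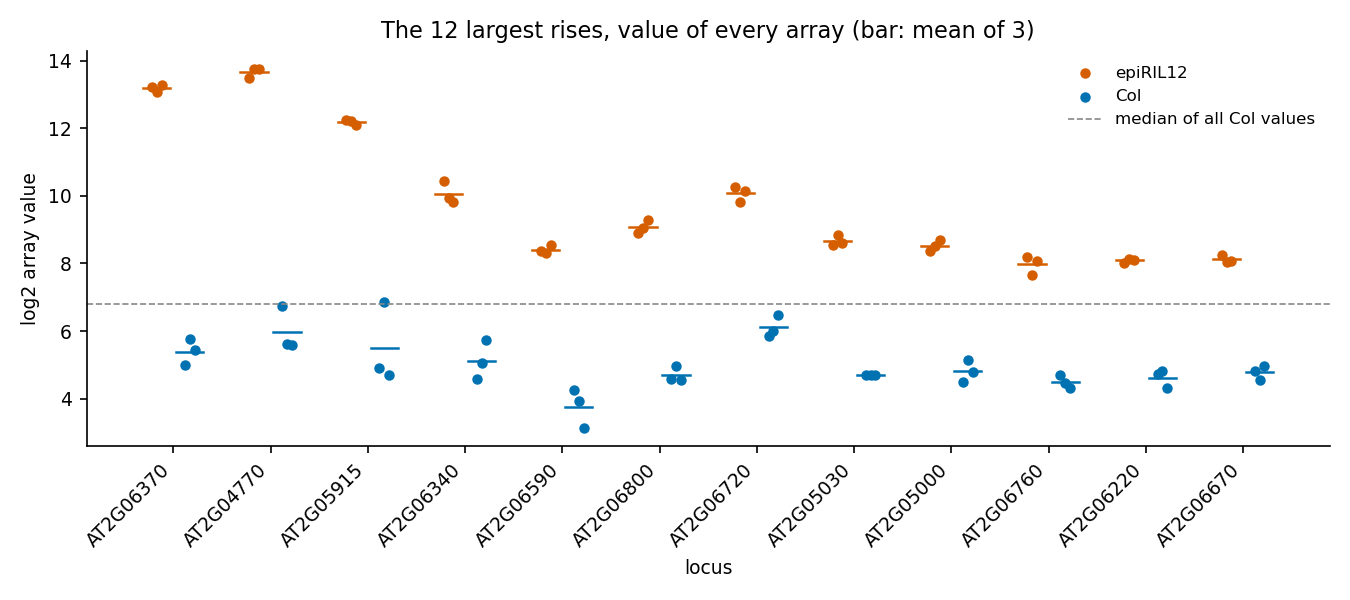
Log2 array value of every array at the 12 loci with the largest rises, epiRIL12 orange at the left of each pair and Col blue at the right, with a bar at the mean of 3 arrays. All epiRIL12 points lie above the dashed median of all Col values (6.80) and above every Col point of the same locus; AT2G05915 has 1 Col array at 6.87.

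The other 27 rises were of 1.64-fold to 9.01-fold. The strongest of them were AT2G04210 (log2 3.17), AT2G06930 (3.05), AT2G06490 (2.97), AT2G06740 (2.88), AT2G06330 (2.84), AT2G05647 (2.80), AT2G05660 (2.78), AT2G06920 (2.76) and AT2G06180 (2.71). AT2G06180 started from the highest Col level of all rises, 6.44 ± 0.02 (SD, n = 3), and stood at 9.16 ± 0.17 in epiRIL12. Differences of 2.55 to 2.03 were measured at AT2G05700 (2.55), AT2G05040 (2.50), AT2G07100 (2.43), AT2G05200 (2.21), AT2G04290 (2.14), AT2G07400 (2.14) and AT2G05240 (2.03). Below these lay AT2G07395 (1.77), AT2G05770 (1.63), AT2G07510 (1.52), AT2G04036 (1.30), AT2G07620 (1.29) and AT2G05935 (1.08). The only rises under 2-fold were AT2G05640 (0.92) and AT2G04990 (0.72).

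Beside AT2G05915, 3 protein-coding loci without a symbol rose. AT2G05642 had 7.83, 6.13 and 7.39 in epiRIL12, against 4.58, 4.38 and 4.40 in Col (log2 difference 2.66, SE 0.41, limma adjusted p = 0.0442). Its epiRIL12 arrays had the widest spread of all rises (SD 0.88). AT2G06420 had 5.66, 6.46 and 6.85 in epiRIL12, against 3.29, 4.12 and 3.89 in Col (log2 difference 2.56, SE 0.34, limma adjusted p = 0.0236). AT2G07215 had 7.31, 7.21 and 7.58 in epiRIL12, against 4.45, 4.59 and 5.74 in Col (log2 difference 2.44, SE 0.34, limma adjusted p = 0.0270). No group overlapped at these loci, and each of these 3 calls was lost in 5 of the 6 settings that left out a single array. The number of protein-coding rises was 1 without both arrays numbered 3, and 0 with the ordinary test or the authors' deposited p-values after adjustment. By the annotation AT2G05915 and AT2G07215 overlap the noncoding RNA loci AT2G05914 and AT2G07213, and AT2G06490 overlaps the protein-coding AT2G06425. These overlapping loci are not in the value table, and strand was not kept in the labelled cDNA, so the partners cannot be told apart.

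Of the 39 rises, 24 had a Col mean below 4.84, the lower quartile of all Col values, and all 39 a Col mean below the median of 6.80. In epiRIL12, 28 had a mean above 6.80 and 0 a mean below 4.84. The Col means of the rises ran from 3.77 to 6.44, and their epiRIL12 means from 5.15 to 13.67. Among the 188 pseudogene-class loci with a Col mean below the lower quartile, 22 rose (11.7%), and among the other 52 it was 13 (25%). The share for this class in the whole table, 5.72%, was not split by Col level. The contrast is therefore not shown to be particular to the range. A pair of pseudogene-class loci, AT2G04110 and AT2G05562, had means above 6.80 in both genotypes, and neither was called. Both were picked out after the values were known.

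Along the range, rises were found in each of 8 windows of 500 locus numbers. The window from AT2G04000 held 3 rises among 69 loci, and that from AT2G04500 held 2 among 55. The next window, from AT2G05000, held 5 among 53. From AT2G05500 there were 8 among 58, from AT2G06000 7 among 57, and from AT2G06500 8 among 67. The window from AT2G07000 held 4 among 56, and the short last window from AT2G07500 held 2 among 17. The share of loci that rose was thus lowest in the windows from AT2G04000 and AT2G04500 (4.35% and 3.64%). It was 13.8%, 12.3% and 11.9% in the windows from AT2G05500 to AT2G06999, and 7.14% and 11.8% in those from AT2G07000 and AT2G07500. Loci named AT2G05000 to AT2G06999 held 28 of the 39 rises and 235 of the 432 loci. The shares of neighbouring windows were not tested against each other.

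The makeup of the windows also changed along the range. Pseudogene-class loci made up 31.9% and 30.9% of the loci in the windows from AT2G04000 and AT2G04500. Their share was 75.4% and 77.6% in the windows from AT2G06000 and AT2G06500. The windows from AT2G04000 and AT2G04500 thus held mostly protein-coding loci, although the whole range goes by the name of heterochromatin. The sources used here do not measure chromatin state. Counted among pseudogene-class loci only, 13.6%, 11.8%, 17.9%, 22.2%, 14.0%, 15.4%, 8.11% and 14.3% rose in the 8 windows, in locus order. On this count the highest share was 6 of 27 loci, from AT2G05500, and the lowest 3 of 37, from AT2G07000. The largest rises were spread out as well: AT2G04770 lay in the second window, AT2G05915 in the fourth and AT2G06370 in the fifth. In the last windows, the largest rises were 2.44 at AT2G07215 and 1.52 at AT2G07510 on the log2 scale.

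**Figure D3:**
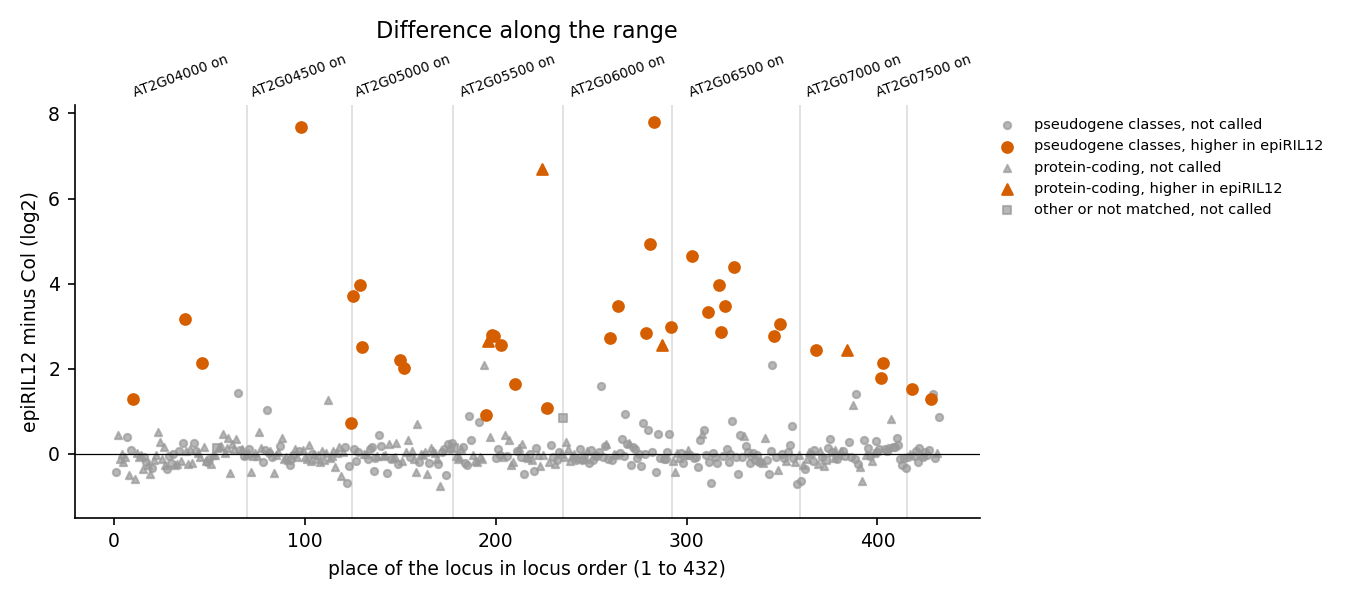
Log2 difference (epiRIL12 minus Col) of the 432 loci in locus order, circles for pseudogene-class and triangles for protein-coding loci, with called rises in orange and thin lines at the window borders. Rises occur in every window and lie among loci near 0, and the 3 above 6 on the log2 scale are in different windows.

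Called rises were mostly single loci, a count that follows the call threshold. In locus order of the measured loci, 6 pairs of rises stood next to each other, which took in 12 of the 39, and no run was longer than 2. AT2G05030 rose by 3.96 and its neighbour AT2G05040 by 2.50 on the log2 scale. AT2G05647 and AT2G05660 rose by almost the same amount, 2.80 and 2.78, and AT2G07395 and AT2G07400 by 1.77 and 2.14. AT2G06720 and AT2G06740 rose by 3.97 and 2.88. Members of the other 2 pairs differed more, with AT2G04990 at 0.72 beside AT2G05000 at 3.72, and AT2G05640 at 0.92 beside AT2G05642 at 2.66. The last pair stood in a longer stretch, picked out after the values were known. From AT2G05635 to AT2G05660, consecutive measured loci differed by 2.09, 0.92, 2.66, 0.40, 2.80 and 2.78 on the log2 scale. Of these, AT2G05635 and AT2G05645 were not called. The calls of AT2G04990, AT2G05640, AT2G05642, AT2G06740 and AT2G07395 were lost in at least 1 setting that left out a single array. Probes or transcripts shared by such neighbours cannot be told apart here, and cross-hybridisation between copies of a repeat was not tested for any repeat locus named.

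Measured neighbours of the 6 largest rises were not called. AT2G06370 stood between AT2G06350 (log2 difference 0.05, SE 0.10) and AT2G06380 (-0.42, SE 0.25). AT2G04770 stood between the pseudogene AT2G04760 (0.07, SE 0.15) and FLA7 (0.08, SE 0.11), which encodes a fasciclin-like arabinogalactan protein of the cell surface. A level as high as 13.67 at AT2G04770 thus lay beside 4.20 ± 0.28 at AT2G04760 in epiRIL12 (SD, n = 3). AT2G05915 stood between AT2G05910 (-0.27, SE 0.29) and AT2G05920 (-0.02, SE 0.10). AT2G06340 lay between AT2G06335 (0.56, SE 0.22) and AT2G06350, AT2G06590 between AT2G06580 (-0.01, SE 0.10) and AT2G06600 (-0.09, SE 0.20). AT2G06800 lay between AT2G06790 (0.77, SE 0.19, limma adjusted p = 0.299) and AT2G06810 (-0.08, SE 0.22). Of the 61 loci that adjoin a rise without being a rise, 20 were protein-coding, with a median log2 difference of -0.04 and a range of -0.58 to 2.09. That none of these 20 was called was fixed in advance. Rises were left out of the set, and no locus of the range was called lower.

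Most of the range stayed low. Both group means lay below the lower quartile of all Col values at 225 of the 432 loci (52.1%), against a background of 23.5% of all loci. Of the pseudogene classes 159 of 240 loci stayed low (66.3%, against 64.2% in the whole table), and of the protein-coding loci 63 of 188 (33.5%, against 16.5%). Thus the share of pseudogene-class loci that stayed low was near that of the class in the whole table. By window this share was 68.2%, 76.5%, 60.7%, 63.0%, 67.4%, 59.6%, 78.4% and 57.1%, in locus order. The count of low loci depends on the level taken as low: 111 loci had both means below the 10th percentile of all Col values.

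Low loci and rises were interleaved. The longest run of low loci reached from AT2G06060 to AT2G06140, with 11 measured loci of which 9 were pseudogene-class. Its means ran from 3.51 to 4.48 in epiRIL12 and from 3.55 to 4.51 in Col, and the differences from -0.21 to 0.12. Further runs lay from AT2G07460 to AT2G07505 (8 loci) and from AT2G07270 to AT2G07330 (7 loci). The longest stretch without a rise reached from AT2G04300 to AT2G04760, with 51 loci of which 16 were pseudogene-class. Of 42 loci from AT2G05260 to AT2G05635, 16 were pseudogene-class, and none was called. Its last locus, AT2G05635, was nonetheless 2.09 higher in epiRIL12 on the log2 scale, without overlap (limma adjusted p = 0.278). Stretches rich in pseudogenes also had gaps: from AT2G06810 to AT2G06917, 20 loci held 16 of these and no called rise, although AT2G06800 just before and AT2G06920 just after it rose by 4.39 and 2.76. The last locus of that gap, AT2G06917, was 2.08 higher, without overlap and not called (limma adjusted p = 0.159). The ends of these stretches were read off the values and carry no test.

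**Figure D4:**
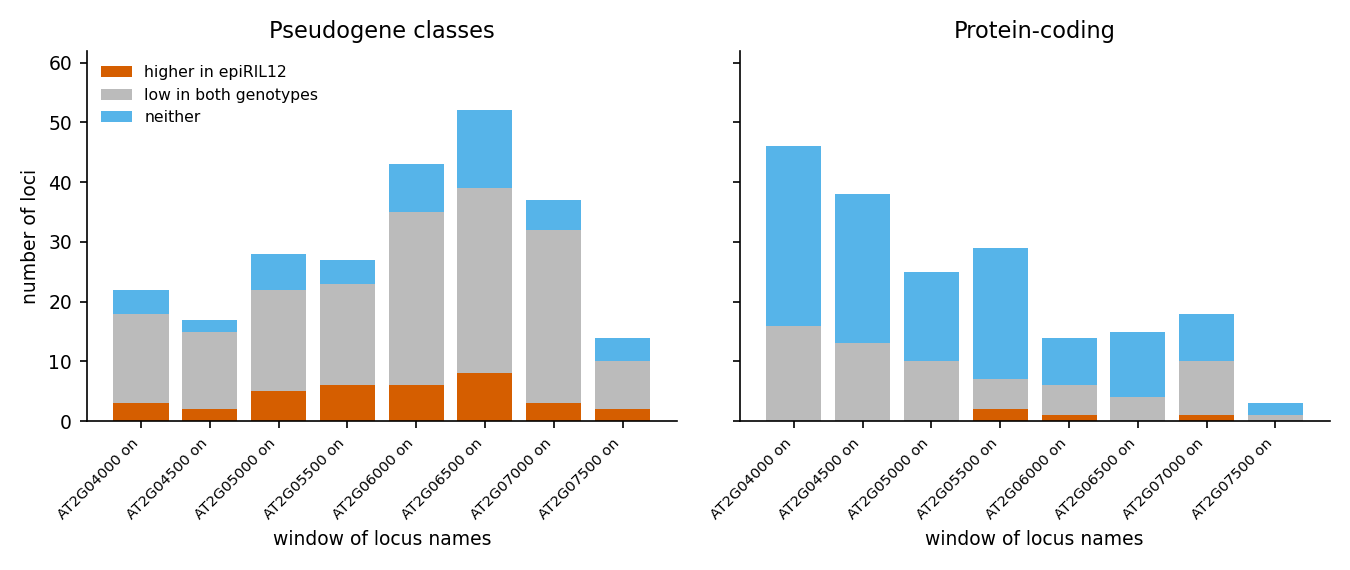
Number of pseudogene-class loci (left) and protein-coding loci (right) in each window of locus names, split into loci higher in epiRIL12 (orange), loci low in both genotypes (grey) and the rest (blue). Pseudogene-class loci number 17 to 28 in the first 4 windows and 52 in the window from AT2G06500, grey is the largest part of each left bar, and each left bar has 2 to 8 orange loci.

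Ordinary genes of the range that were listed by known function showed no called difference. XTH4, left out of the range by the rule and called lower, is not among them. Of 40 genes listed by function, 38 were measured and 0 were called by limma, 2 being below an unadjusted p of 0.05 (5.26%, against 5.32% of all protein-coding loci). With 0.107% of protein-coding loci called higher and 0.0715% lower in the whole table, both counts are near the background. Their median log2 difference was -0.07, beside -0.03 for all protein-coding loci of the range and for those of the whole table, with 29 below and 9 above 0. Chloroplast proteins encoded in the nucleus had 7 measured genes, with differences of -0.15 to 0.01. LHCB2.2, an antenna protein of photosystem II, had 15.06, 14.98 and 15.12 in epiRIL12, against 15.02, 15.00 and 15.14 in Col. LHCB2.1, its close relative, had 14.23, 13.96 and 14.35 in epiRIL12, against 14.19, 14.16 and 14.35 in Col. Their groups overlapped, and the probes of such similar genes may share signal. PSBX, a small photosystem II subunit, had the highest difference of the list (0.01, SE 0.09) and AT2G04700 the lowest (-0.15, SE 0.11).

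In the cluster of MATE transporters, which export small molecules, 6 of 7 listed genes were measured and their log2 differences ran from -0.27 at AT2G04100 to 0.29 at AT2G04070. AT2G04100 had 6.20, 6.18 and 6.23 in epiRIL12, against 6.33, 6.57 and 6.52 in Col, with no overlap (limma unadjusted p = 0.0289, adjusted p = 0.606). These genes are close copies of each other, and their probes may share signal. Among 7 measured regulators of hormones, defence and growth the differences ran from -0.22 to 0.01. XERICO, a RING protein that promotes abscisic acid accumulation, had the lowest, with 9.44, 9.57 and 9.65 in epiRIL12 and 9.89, 9.72 and 9.70 in Col (limma adjusted p = 0.782). Its groups did not overlap, and it was not called. OPR3, a peroxisomal enzyme of jasmonate synthesis, had 8.91, 9.55 and 9.14 in epiRIL12, against 9.38, 8.73 and 9.76 in Col, with full overlap. GRF6, a growth-regulating transcription factor, had the highest difference of the list (0.01, SE 0.26) and low means of 3.90 in epiRIL12 and 3.89 in Col.

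Of 14 housekeeping genes, the lowest difference was at RPA1A, a subunit of the single-strand DNA binding complex RPA that acts in replication and meiosis. It had 7.00, 7.10 and 7.08 in epiRIL12, against 7.36, 7.59 and 7.53 in Col, without overlap (log2 difference -0.43, SE 0.10, limma unadjusted p = 0.00361, adjusted p = 0.215). It was not called. APC2, a subunit of the anaphase-promoting complex, had the highest (0.05, SE 0.10). HEN2, an RNA helicase that works with the nuclear exosome, had 8.56, 8.22 and 8.52 in epiRIL12, against 8.39, 8.67 and 8.34 in Col. Of 4 genes for cell wall and secreted proteins, the glycine-rich protein gene GRP3S was lowest (-0.47, SE 0.40) and FLA7 highest (0.08, SE 0.11). GRP3S spread by over 1 on the log2 scale within both genotypes, with 8.76, 9.59 and 8.50 in epiRIL12 and 10.13, 8.85 and 9.27 in Col. The lowest difference of all 432 loci was at another glycine-rich protein gene, GRP9 (AT2G05440), with -0.75 (limma unadjusted p = 0.0450, adjusted p = 0.696), singled out after its value was seen.

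**Figure D5:**
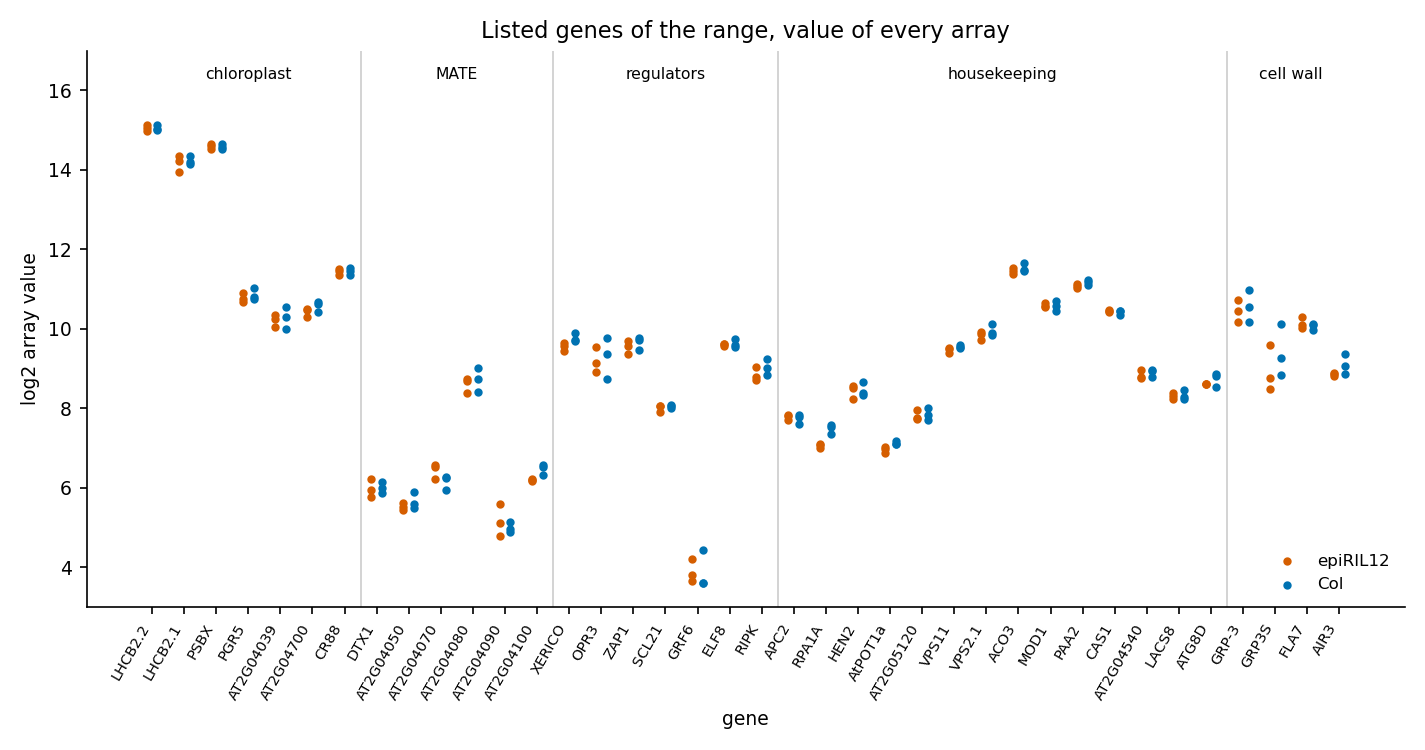
Log2 array value of every array for the 38 measured listed genes of the range, epiRIL12 orange at the left and Col blue at the right of each gene, grouped by list. The values of both genotypes lie close to each other at most genes, from means of 15.05 at LHCB2.2 to 3.90 at GRF6 in epiRIL12. None was called. At AT2G04100, XERICO, AtPOT1a and RPA1A every epiRIL12 value lay below every Col value, as at 7.11% of all protein-coding loci. No listed gene showed the reverse.

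At the low end of the range, the first members were AT2G04010 (log2 difference -0.43), AT2G04020 (0.44) and RGF3 (-0.13), a root meristem growth factor gene, and none was called. The loci just before them were AT2G03972 (-0.12), AT2G03980 (-0.08) and AT2G03990 (0.59). At the high end, AT2G07635 (-0.09), AT2G07640 (0.03) and AT2G07650 (0.88) were the last members. AT2G07650 had a mean of 6.58 ± 0.27 in epiRIL12 and 5.70 ± 0.04 in Col (SD, n = 3 each) and was not called (limma adjusted p = 0.0672). It was called without epiRIL12 replicate 2 (limma adjusted p = 0.0371). Beyond the end, the adjoining AT2G07660 had a difference of 1.32 and was called higher (limma adjusted p = 0.0104). ABCC13 (0.04) and AT2G07682 (0.45) followed and were not called.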

How the data were processed

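Total RNA was freed of ribosomal RNA, copied with random primers and turned into biotin-labelled double-stranded cDNA for Affymetrix arrays, per the labels' protocols. The authors deposited 1 log2 value per locus and array. The sources used here do not give background correction, normalization, tools or genome build. The authors' deposited table holds a log2 difference and a p-value per locus, by a test that the sources used here do not name. The value table has no locus names, and was joined to that table by row order. Over all 29670 loci, Pearson's r between both differences was 0.967 in place and 0.17 when shifted by 1 row. Over the 432 loci, it was 0.993 in place and 0.02 when shifted by 1 row. At the 39 rises, both differences lay at most 0.37 apart on the log2 scale, at AT2G05647. Differences are epiRIL12 minus Col.

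All 29670 loci, unfiltered, entered 1 two-sided limma fit by genotype (limma 3.58.1, R 4.3.3, functions lmFit and eBayes), with Benjamini-Hochberg adjustment over all loci and a threshold of 0.05. The number of arrays limits the precision. The test was tried on simulated data with independent noise at each locus and no array effects. Such data differ from the real arrays, so the trial cannot vouch for the calls here. Names and classes came from the RefSeq table of TAIR10.1, whose coordinates are not given. Sequences were not used here. Errors are SDs over the arrays of a group and limma's standard errors of differences. Named were all called loci, neighbours of the 6 largest, members of 5 lists of range genes by rule, the loci at both ends, and a few chosen after their values were seen. The members and lists were chosen with earlier results of these data known. Alternatives were a replicate block, other normalizations, filters, tests and thresholds, and leaving out arrays. Summaries used Python 3.11.15 with pandas 2.3.3, and plots matplotlib 3.10.9.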

Additional observations from a re-analysis of the deposited data

How the results depend on the processing

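The count of range loci called higher was 39. It was 21 with the ordinary equal-variance test, 22 with the authors' deposited p-values after adjustment and, chosen after seeing the data, 24 without both arrays numbered 3. It lay between 30 and 36 with 1 array left out at a time. Pseudogene-class rises, 35 in number, were 21, 22 and 23 in those 3 settings and 29 to 34 with 1 array left out. Rises named AT2G05000 to AT2G06999, 28 in number, were 17, 17 and 18, and 23 to 27 with 1 array left out. The 4 protein-coding rises became 0 with the ordinary test, 0 with the authors' p-values, 1 without both arrays numbered 3, 1 at an adjusted p under 0.01, and 1 to 3 with 1 array left out. The causes were not tested. Settings with fewer arrays also leave fewer degrees of freedom, and this was not separated from effects of single arrays. No setting gave a member called lower, and no called difference changed sign. With the replicate number as a block, 35 range loci were called higher, 34 of them among the 39. Deviations from the group means correlated at -0.04, -0.07 and 0.13 between arrays of the same number. Between arrays of different numbers, the correlation ran from -0.09 to 0.12. Deviations sum to 0 within each genotype, so these few values cannot decide whether the numbers pair the samples. The count of loci low in both genotypes, 225, was 111 with the 10th percentile as the level, 313 with the median, 194 when every array had to be below its own lower quartile, and 222 to 226 with 1 array left out. Without a background level, no change can be read among loci near the lowest values.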

Other observations

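Another 10 loci of the range had a mean at least 2-fold higher in epiRIL12 without being called, 7 of them pseudogene-class and 3 protein-coding. The largest differences were at AT2G05635, with 5.63 ± 1.09 in epiRIL12 and 3.55 ± 0.30 in Col, and at AT2G06917, with 5.79 ± 0.17 in epiRIL12 and 3.71 ± 0.92 in Col (SD, n = 3 each). They were 2.09 and 2.08 on the log2 scale (limma adjusted p 0.278 and 0.159). AT2G05635 directly precedes the rise at AT2G05640, and AT2G06917 directly precedes that at AT2G06920. AT2G04460 stood at 7.74 ± 0.32 in epiRIL12 and 6.32 ± 0.46 in Col (SD, n = 3 each; limma adjusted p = 0.103). AT2G07240, AT2G07260 and AT2G07630, near the centromere side, differed by 1.15, 1.42 and 1.41 on the log2 scale (limma adjusted p 0.109, 0.255 and 0.308). No locus of the range had a mean at least 2-fold lower in epiRIL12. All loci in this paragraph were picked out after the values were known.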
